A study of Mus musculus with 13 samples.

Results

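The 31 genes described here encode the machinery that moves new proteins into the endoplasmic reticulum (ER) and folds them there. They were chosen by symbol from 27071 features of a gene count table, and all 31 were found in it and passed the filter on low counts. By role they were 6 translocon genes (Sec61a1, Sec61b, Sec61g, Sec62, Sec63, Tram1), 4 subunits of the TRAP complex (Ssr1 to Ssr4) and the receptor subunit Srpr. They also included 5 signal peptidase genes (Spcs1, Spcs2, Spcs3, Sec11a, Sec11c) and 7 oligosaccharyltransferase genes (Dad1, Ddost, Rpn1, Rpn2, Stt3a, Stt3b, Ost4). Finally there were 4 chaperones (Canx, Calr, Hspa5, Hsp90b1) and 4 disulfide isomerases (Pdia3, Pdia4, Pdia6, P4hb). The study asked which RNAs are held by the KH and Tudor domains of dAKAP1, a protein of the outer mitochondrial membrane that anchors protein kinase A.

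MA-10, a steroid-making line from a mouse Leydig tumour, was the source of RNA for every library and was grown in RPMI medium with horse serum. KHT stands for 4 pull-downs in which purified bait of the KH and Tudor domains was mixed with extracted total RNA and recovered with an antibody against maltose-binding protein (MBP). NEG stands for negative control pull-downs with empty beads, MBP or a bait labelled KHT(GDDG). Which NEG library had which bait is not given in the labels. IPT stands for 4 libraries of the input RNA. RNA met the bait after extraction, so the location of a message in the cell did not enter the pull-down. The labels do not say whether libraries of a group came from separate cultures. The p-values therefore measure the spread between these libraries, which may be technical. The NEG libraries were fitted as replicates of the same group although their baits may differ. The spread within NEG may thus also hold differences between baits, and that part was not tested.

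A secretory protein begins with a signal peptide, which the signal recognition particle (SRP) binds as it leaves the ribosome. The SRP receptor then delivers the ribosome to the Sec61 channel, signal peptidase cuts the signal peptide off and oligosaccharyltransferase attaches a preformed glycan. Inside the ER, chaperones and disulfide isomerases fold the chain, and ATF6, IRE1 and PERK raise folding capacity when unfolded protein builds up. Messages of this pathway are mostly translated at the ER surface, while dAKAP1 has been studied for messages at the mitochondrial surface.

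Total counts ran from 1955446 to 3689792 in KHT, from 2487679 to 3085423 in IPT and from 1162178 to 1618998 in NEG, where NEG 2 had no counts and was left out. Between 96.0% and 98.1% of the counts of each NEG library fell on 9 dominant features, against 26.7% to 52.7% in KHT and IPT. Outside those features the NEG libraries held 31318 to 49062 counts, while the lowest of the KHT and IPT libraries held 929348. Each of the 10 Leydig markers had counts in KHT, IPT and NEG, and their sum outside the dominant features ran from 1564 to 2831 CPM in KHT and IPT. In NEG it ran from 0 to 1957, from 123 counts in all, and NEG 1 had none. Of the markers in the file, 5 of 5 for Sertoli cells, 2 of 2 for germ cells, 5 of 5 for macrophages, endothelium and peritubular cells and 8 of 10 for epithelium had counts in KHT. The epithelial list summed to 40.8 to 941 CPM in NEG, with Krt8, Krt19, Cdh1, Epcam and Jup at 0, and to 30.0 to 147 in KHT and IPT. The macrophage, endothelial and peritubular list summed to 143 to 1118 in NEG, with Cd68 and Myh11 at 0, and to 56.4 to 119 in KHT and IPT. The part of such RNA in the member values was not tested. NEG 5 stood apart from NEG 1, 3 and 4: annotated pseudogenes took 3.32% of its counts outside the dominant features, against 26.2%, 21.7% and 25.8%. In KHT and IPT this share ran from 1.34% to 4.08%.

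All 31 members had counts in every KHT and IPT library. In NEG 1, 3, 4 and 5 they held 100, 126, 167 and 269 counts, and between 17 and 28 members had at least 1. As a share of the counts outside the dominant features, the members summed to 6287 ± 362 CPM (counts per 1000000 counts) in KHT (SD, n = 4), 6349 ± 223 in IPT (SD, n = 4) and 4176 ± 1159 in NEG (SD, n = 4). The KHT and IPT values overlapped, and the NEG values spread the most. Levels below are CPM normalised by trimmed mean of M-values (TMM), given for KHT 1 to 4, IPT 1 to 4 and NEG 1, 3, 4 and 5 in that order. Differences are log2 fold changes from edgeR's quasi-likelihood test across 10714 genes, called at a Benjamini-Hochberg adjusted p under 0.05.

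**Figure D1:**
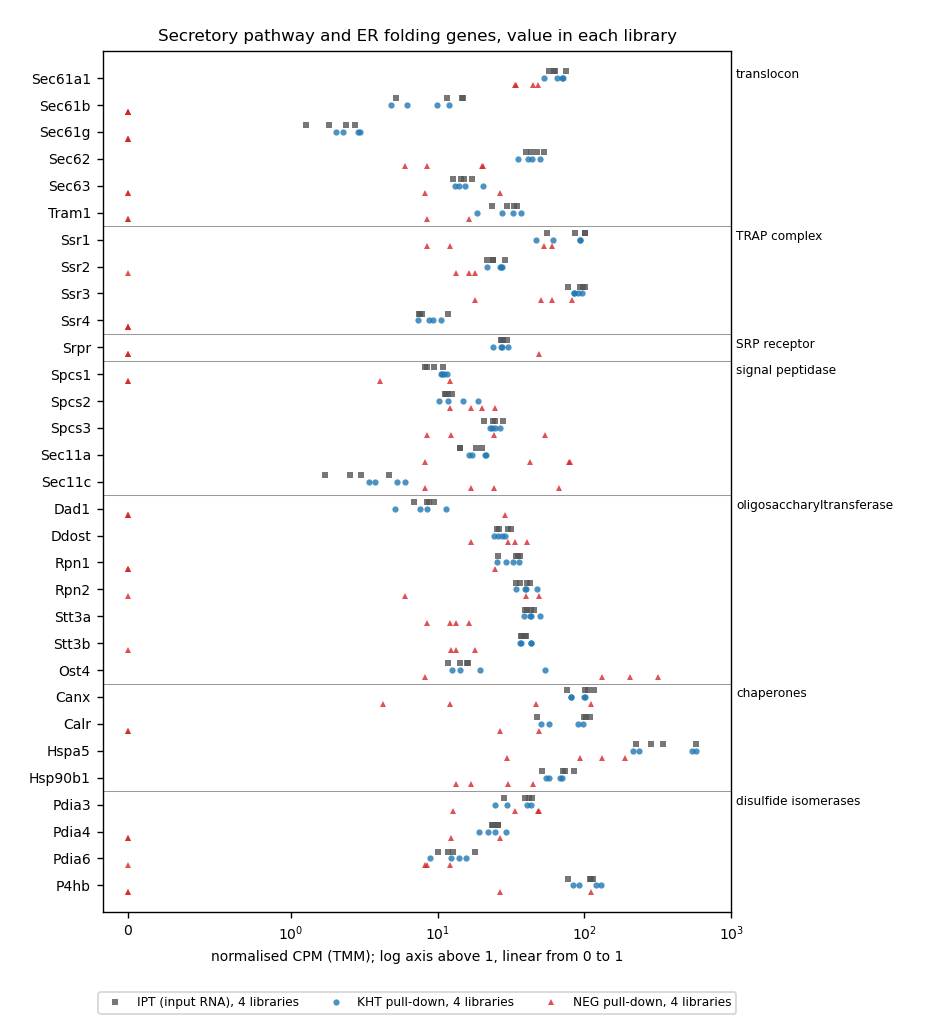
Level of each of the 31 members in each library, in TMM-normalised CPM on an axis that is linear from 0 to 1 and logarithmic above. Circles are KHT, squares IPT and triangles NEG, with 4 libraries each. KHT and IPT points lie together, while NEG points spread widely, some at 0 and some above both other groups. Ost4, Sec11a and Sec11c were the members called higher in NEG, a direction that flips under scaling by total counts alone.

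The levels of the members in the KHT pull-down lay close to those in the input. No member was called between KHT and IPT, in either direction, where the background was 0.00933% of genes higher and 0% lower. Neither did any member reach an unadjusted p under 0.05, against 175 of the 10714 genes, and DESeq2 called 0 members. The median log2 fold change was 0.01 over the members and 0.01 over all genes tested, with Sec61b lowest at -0.50 and Ost4 highest at 0.77. No member had all 4 KHT libraries above or below all 4 IPT libraries, where 0.84% of genes lay wholly above and 1.17% wholly below. For 19 members the 95% interval lay within a 2-fold difference either way. It reached beyond 2-fold for the other 12, which were Sec61b, Sec61g, Ssr1, Ssr3, Sec11c, Rpn2, Ost4, Canx, Calr, Hspa5, Hsp90b1 and P4hb, so their intervals do not exclude a 2-fold difference. These tests and intervals come from 1 fit of 3 groups, so the spread within NEG enters them too. For P4hb the coefficient of variation was 20.7% in KHT, 16.7% in IPT and 152% in NEG. A fit of KHT and IPT alone also called 0 members.

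Between KHT and NEG, 7 members were higher in KHT (Sec61b, Sec62, Tram1, Ssr4, Rpn1, Stt3a and Stt3b), which is 22.6% of the members beside a background of 31% of genes. Lower in KHT were 3 members (Sec11a, Sec11c and Ost4), 9.68% beside a background of 2.72%, and these 3 were higher in KHT under scaling by total counts alone. The median log2 fold change was 1.15 over the members and 1.73 over all genes tested. With the 3 members at 0 in NEG set to the bound that 3 counts allow, the members' median was 1.04, and the median over all genes also holds fitted values of genes at 0 in NEG. All 4 KHT libraries lay above all NEG libraries for 14 members, where the background was 45.8%, and below them for 1, Sec11c, where it was 1.02%.

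Direction against NEG depends on the scaling. Scaled by total counts alone, the median over all genes tested moved from 1.73 to 5.66 and the members' median moved to 5.15. All 31 members were then higher in KHT, beside a background of 97.3%. Statements on NEG below are under TMM scaling unless another scaling is named. Without NEG 5 the members higher in KHT numbered 18, beside a background of 47.2%. Without NEG 1 and without NEG 3 they numbered 4, beside 15.0% and 21.6%. DESeq2 called 15 members higher in KHT than in NEG, beside a background of 37.2%. A fit of these 2 groups alone called 2 of the 30 members it tested higher in KHT, Sec61b and Ssr4, beside 24.8%. It called 2 lower, Ost4 and Sec11c, beside 3.17%.

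Between NEG and IPT, 8 members were lower in NEG, beside a background of 32.5% of genes lower, and 3 were higher, beside 3.64%. The 8 were the 7 members named as higher in KHT than in NEG and also Calr. The 3 were Ost4, Sec11a and Sec11c, whose direction reversed under scaling by total counts alone. Sec11a and Sec11c were then called lower in NEG, and Ost4 was not (log2 fold change -1.04, edgeR adjusted p = 0.0707). This comparison and that of KHT with NEG share the NEG libraries. The median was -1.17 over the members and -1.74 over all genes. All NEG libraries lay below all IPT libraries for 12 members, beside a background of 47.1%, and above them for 1, Sec11c, beside 1.74%.

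**Figure D2:**
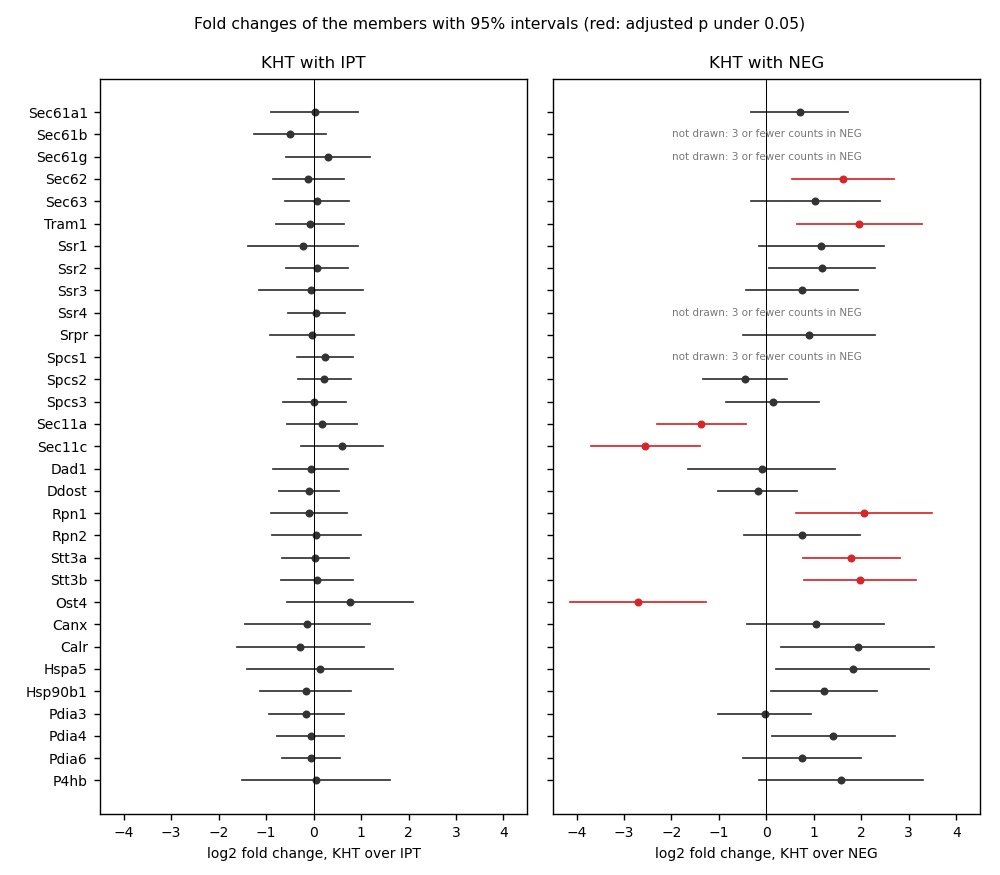
Log2 fold change of each member with its 95% interval, for KHT over IPT on the left and KHT over NEG on the right, from edgeR under TMM scaling. Red marks an adjusted p under 0.05; the left panel has none, the right panel has 5 higher and 3 lower drawn in red (the 3 lower are higher under scaling by total counts alone), and 4 members with 3 or fewer NEG counts are not drawn.

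Of the 6 translocon genes, Sec62, Tram1 and Sec61b were called higher in KHT than in NEG, Sec61a1 and Sec63 had NEG counts and were not called, and Sec61g like Sec61b had no NEG count. Sec62, part of the machinery for small and post-translationally moved proteins (chr3:30792876-30821263, GRCm38.p6), stood at 43.7, 49.8, 41.1 and 35.3 CPM in KHT, 47.7, 39.7, 43.0 and 52.7 in IPT, and 8.49, 6.03, 20.1 and 20.4 in NEG. Every NEG library was below every KHT library, and KHT was higher by 1.62 on the log2 scale (SE 0.52, edgeR adjusted p = 0.0233). That call was lost without NEG 3 (adjusted p = 0.0522).

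Tram1, a membrane protein beside the channel that assists signal sequences (chr1:13564693-13589910), stood at 18.6, 27.4, 32.5 and 36.8 CPM in KHT, 23.4, 29.6, 32.9 and 34.8 in IPT and 8.49, 0, 0 and 16.3 in NEG. KHT and NEG did not overlap, with a log2 fold change of 1.96 (SE 0.64, edgeR adjusted p = 0.0251). The NEG values rest on 6 counts in all, and the call was lost without NEG 1, 3 or 4 in turn (adjusted p from 0.0532 to 0.0623). Without NEG 5, which held 4 of the 6, the log2 fold change was 3.06 (adjusted p = 0.0042).

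Sec61b, a small subunit of the channel, had 204 counts in KHT, 373 in IPT and none in NEG. Its KHT levels were 6.17, 4.79, 9.94 and 11.9 CPM and its IPT levels were 5.22, 14.7, 11.6 and 14.8. KHT was at least 2.17-fold higher than NEG, taking 3 counts over all NEG libraries as the floor, with an edgeR adjusted p of 0.0304. The call was lost when any 1 NEG library was left out (adjusted p from 0.0513 to 0.0871). Sec61g, the other small subunit, had 62 counts in KHT, 67 in IPT and none in NEG. Its KHT level lay under the floor, so its absence from NEG was within what the NEG depth allows.

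Sec61a1, the pore-forming subunit, stood at 65.0, 53.0, 70.7 and 72.0 CPM in KHT, 57.0, 74.5, 63.0 and 62.3 in IPT and 34.0, 48.2, 33.5 and 44.9 in NEG. All NEG values lay below the KHT values, and the difference of 0.70 on the log2 scale (SE 0.49) did not pass the test (edgeR adjusted p = 0.249). Sec63, which recruits Hspa5 to the channel, had 6 NEG counts and a difference of 1.03 that did not pass either (adjusted p = 0.201).

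The TRAP complex sits beside the channel and helps certain signal sequences to insert. Its subunit Ssr4 had 225 counts in KHT, 277 in IPT and none in NEG. In KHT it stood at 7.35, 9.36, 10.5 and 8.69 CPM and in IPT at 7.78, 7.61, 11.8 and 7.42. KHT was at least 2.40-fold higher than NEG by the floor of 3 counts (edgeR adjusted p = 0.00908), and the call was kept in each alternative run. Ssr3 and Ssr1 had more NEG counts than the other subunits, 44 and 26. For Ssr3 the levels were 84.7, 85.4, 90.6 and 96.6 CPM in KHT and 50.9, 18.1, 60.2 and 81.7 in NEG, which did not overlap, with a log2 difference of 0.74 that did not pass (adjusted p = 0.285). Ssr1 overlapped between these groups, at 46.9, 61.4, 92.6 and 93.9 in KHT and 8.49, 12.1, 60.2 and 53.1 in NEG. Ssr2 did not, at 27.6, 21.7, 27.2 and 26.6 in KHT and 0, 18.1, 13.4 and 16.3 in NEG, with a log2 difference of 1.17 (SE 0.54, adjusted p = 0.0878).

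Srpr encodes the subunit of the SRP receptor that meets the particle on the ribosome. It was even in KHT (27.2, 30.4, 23.8 and 27.3 CPM) and in IPT (27.9, 27.3, 29.6 and 27.0). In NEG all of its 12 counts were in NEG 5, at 49.0 CPM, which lies above each KHT and IPT library. No difference passed the test with NEG 5 included (log2 fold change 0.90, SE 0.67, edgeR adjusted p = 0.269). Without NEG 5 no NEG count of Srpr is left, and Srpr was called higher in KHT (adjusted p = 0.000239), as were 47.2% of all genes. KHT was then at least 4.88-fold higher by the floor of 3 counts over NEG 1, 3 and 4.

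Signal peptidase had 2 of 5 members called lower in KHT than in NEG, its catalytic subunits Sec11a and Sec11c, and both were higher under scaling by total counts alone. Sec11a (chr7:80915379-80947550) stood at 20.9, 16.4, 17.1 and 21.4 CPM in KHT, 20.1, 14.2, 18.2 and 14.3 in IPT, and 42.4, 78.4, 80.3 and 8.17 in NEG. NEG 1, 3 and 4 were above all KHT and IPT libraries and NEG 5 was below them. KHT was lower than NEG by a log2 fold change of -1.38 (SE 0.45, edgeR adjusted p = 0.0264), and higher by 2.78 under scaling by total counts alone. The lower call was also lost in limma voom (adjusted p = 0.240), with no filter on low counts (0.130) and without NEG 1, NEG 3, NEG 4, KHT 2 or KHT 3 (from 0.0535 to 0.114).

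Sec11c, the alternative catalytic subunit, lay above the other groups in all 4 NEG libraries under TMM scaling, a direction that flipped under scaling by total counts alone. Its levels were 3.41, 5.25, 3.73 and 5.96 CPM in KHT, 1.70, 4.65, 2.53 and 3.03 in IPT, and 17.0, 24.1, 66.9 and 8.17 in NEG, the last from 4, 4, 10 and 2 counts. The log2 fold change of KHT over NEG was -2.55 (SE 0.55, edgeR adjusted p = 0.00445), -1.76 without NEG 4 (adjusted p = 0.0373) and 1.57 under scaling by total counts alone. Between KHT and IPT, Sec11c had the lowest unadjusted p of the members, 0.161, with a log2 fold change of 0.60 (95% interval -0.26 to 1.46).

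The accessory subunits were not called in any comparison. Spcs2, a subunit that fine-tunes cleavage, gave 11.8, 18.7, 10.2 and 14.9 CPM across KHT and 17.0, 12.1, 20.1 and 24.5 in NEG, with overlap. Spcs3, which the catalytic subunits need, overlapped as well, at 22.7, 23.5, 26.5 and 24.6 in KHT and 8.49, 24.1, 53.5 and 12.3 in NEG. Spcs1 had 3 NEG counts against 272 in KHT, a ratio of 2.90 with an exact 95% counting interval of 0.98 to 14.1, which covers counting error only.

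Oligosaccharyltransferase had 3 of 7 members called higher in KHT than in NEG and 1 called lower, which was higher under scaling by total counts alone. Stt3a and Stt3b are its alternative catalytic subunits, acting on chains as they enter the ER or after they have entered. Stt3a (chr9:36729344-36767622) stood at 49.5, 42.7, 38.6 and 43.5 CPM in KHT, 43.6, 40.9, 39.5 and 45.7 in IPT and 8.49, 12.1, 13.4 and 16.3 in NEG. Stt3b (chr9:115242470-115310468) stood at 43.6, 36.3, 43.5 and 37.3 in KHT, 36.7, 37.6, 39.8 and 39.2 in IPT and 0, 18.1, 13.4 and 12.3 in NEG. For both genes each KHT and IPT library was above each NEG library. KHT over NEG was 1.79 for Stt3a (SE 0.49, edgeR adjusted p = 0.0125) and 1.97 for Stt3b (SE 0.57, adjusted p = 0.0153). The NEG values rest on 10 and 8 counts, and in a fit of KHT and NEG alone the adjusted p was 0.122 and 0.0928.

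Rpn1 (ribophorin I, which presents substrates to the enzyme) had 6 NEG counts, all in NEG 5. It stood at 29.3, 25.6, 35.6 and 32.5 CPM in KHT and at 24.5 in NEG 5, so the groups were separated only narrowly, and the log2 fold change was 2.06 (SE 0.69, edgeR adjusted p = 0.0285). The call was lost without NEG 1, 3 or 4 in turn (adjusted p from 0.0747 to 0.0916). The size of the fold rests on NEG 5 alone, since without it no NEG count is left and KHT was at least 5.76-fold higher by the floor of 3 counts over the other 3 NEG libraries (adjusted p = 0.000341). Dad1, a small subunit named for the death of cells that lack it, likewise had all 7 of its NEG counts in NEG 5. At 28.6 CPM that library was above every KHT and IPT library, and the log2 difference was -0.10 (SE 0.75, adjusted p = 0.925). Ddost and Rpn2, structural subunits of the complex, overlapped between the groups with 24 and 19 NEG counts (adjusted p = 0.717 and 0.297).

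Ost4 encodes the smallest subunit, a single membrane helix that holds the catalytic subunit in place (chr5:30906516-30907807). It had 31, 34, 47 and 2 counts in NEG 1, 3, 4 and 5, the most of any member in the first 3 of these libraries. Its levels were 132, 205, 315 and 8.17 CPM in NEG, 12.6, 53.7, 14.1 and 19.4 in KHT, and 11.7, 15.9, 16.2 and 14.2 in IPT. NEG 1, 3 and 4 were above every KHT and IPT library, NEG 5 was below them, and KHT 2 was the highest KHT library. KHT over NEG was -2.70 (SE 0.69, edgeR adjusted p = 0.00896), and 1.50 under scaling by total counts alone; the call was lost in limma voom (adjusted p = 0.0727).

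The makeup of the member counts in NEG followed these genes. Ost4 took 31%, 27.0% and 28.1% of the member counts in NEG 1, 3 and 4, against 0.74% in NEG 5 and 0.79% to 3.47% in KHT and IPT. Signal peptidase took 20%, 19.8% and 19.8% in NEG 1, 3 and 4, against 5.20% in NEG 5 and 4.02% to 5.53% in KHT and IPT. The pseudogene share was high in the same 3 NEG libraries, and among KHT libraries it was highest in KHT 2, at 4.08%, where Ost4 was also highest. Sec11a was lowest of the KHT libraries in KHT 2, at 16.4 CPM. Sec11c was highest in KHT 4, at 5.96 CPM against 5.25 in KHT 2. The part of pseudogene reads in the Ost4, Sec11a and Sec11c values was not tested.

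**Figure D3:**
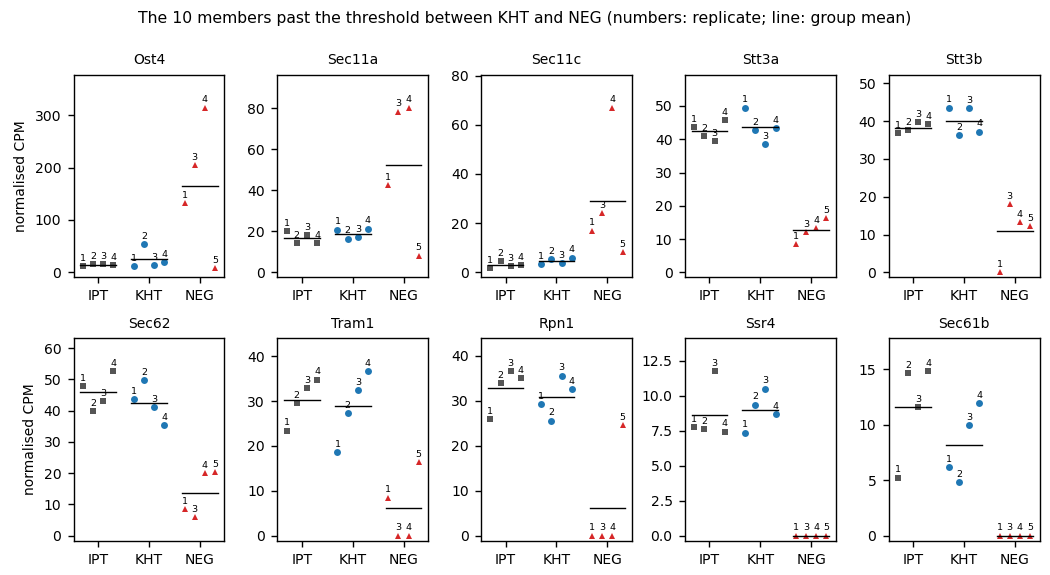
Normalised CPM of the 10 members called between KHT and NEG in each IPT, KHT and NEG library, with the replicate number at each point and the group mean as a line. Ost4, Sec11a and Sec11c are high in NEG 1, 3 and 4 and lowest of the NEG libraries in NEG 5 (their direction flips under scaling by total counts alone), and the other 7 lie below KHT in each NEG library.

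The chaperones were abundant in the input and in the KHT pull-down, and none of the 4 was called between KHT and NEG or between KHT and IPT. Hspa5 (BiP, the main Hsp70 of the ER lumen, chr2:34772090-34776529) had the most counts of all members, 9684 in KHT, 12188 in IPT and 89 in NEG. Its levels were 575, 539.7, 234 and 215 CPM in KHT, 576, 283, 225 and 340.4 in IPT, and 29.7, 133, 93.7 and 188 in NEG. Each NEG library was below each KHT library, and the log2 fold change of 1.82 (SE 0.78) did not pass the test (edgeR adjusted p = 0.0715). It passed in DESeq2 (adjusted p = 0.00388), in limma voom (0.0325) and without NEG 5 (0.0113).

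Calr (calreticulin, a soluble lectin for glycoproteins) gave 57.2, 50.2, 98.3 and 89.9 CPM in KHT, 47.4, 103, 99.9 and 108 in IPT and 0, 0, 26.8 and 49.0 in NEG. KHT was above NEG in each library, with a log2 fold change of 1.92 (SE 0.78, edgeR adjusted p = 0.0595), and this passed in DESeq2 (0.00658), limma voom (0.0472) and without NEG 5 (0.00504). NEG was lower than IPT by a log2 fold change of -2.20 (SE 0.78, adjusted p = 0.0349). This was -3.63 without NEG 5 (adjusted p = 0.0029), and the call was lost without NEG 1, 3 or 4 in turn (from 0.0545 to 0.0834). It was also lost without IPT 2, 3 or 4 in turn (from 0.0672 to 0.0708). A fit of NEG and IPT alone (0.0742) and a test against a 2-fold change (0.0864) lost it too.

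Hsp90b1 (the ER Hsp90) gave 54.7, 57.8, 70.2 and 67.8 CPM across KHT and 17.0, 30.2, 13.4 and 44.9 in NEG. These values did not overlap, and the log2 difference of 1.21 (SE 0.54) did not pass (edgeR adjusted p = 0.0809). Canx (calnexin, the membrane-bound lectin) overlapped, at 81.4, 80.6, 99.6 and 102 in KHT and 4.24, 12.1, 46.9 and 110.3 in NEG. NEG 5 held 27 of the 37 Canx counts in NEG, and without it Canx was called higher in KHT (adjusted p = 0.00467).

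Chaperone genes are classic targets of the ER stress response element (ERSE), through which ATF6 acts together with NF-Y. The letters CCAAT, any 9 bases and CCACG were searched on both strands in RefSeq promoter windows of GRCm38.p6, each from 250 bases before to 50 bases after a gene's start. Of the 31 members 26 had a window, and 5 of these held the letters (19.2% of genes), all of them chaperones or isomerases. Among all 32851 windows 39 held them (0.12%), which is 37 of 27025 genes (0.14%). Among genes of the 6 other pathway lists 5 of 110 did (4.55%), and of these Alg12 and Creld2 share the same site. The second element ERSE-II, searched as ATTGG, any 1 base and CCACG, was in no member window and in 12 of the 32851. Both patterns end in CCACG, and no member window held both. The following stretches show each member site in capitals with 20 bases on either side, read 5′ to 3′ on the strand of the gene.
Hspa5: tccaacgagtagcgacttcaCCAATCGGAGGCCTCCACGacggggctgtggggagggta
Calr: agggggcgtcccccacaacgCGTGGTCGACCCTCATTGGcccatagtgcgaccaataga
Hsp90b1, upstream site: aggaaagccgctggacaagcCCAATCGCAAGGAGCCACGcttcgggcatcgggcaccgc
Hsp90b1, downstream site: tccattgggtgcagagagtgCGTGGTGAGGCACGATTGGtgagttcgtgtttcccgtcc
Canx: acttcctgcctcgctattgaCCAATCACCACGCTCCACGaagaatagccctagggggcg
Pdia6: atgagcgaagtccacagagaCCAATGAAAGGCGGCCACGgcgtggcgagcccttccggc

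The Hspa5 stretch lies at chr2:34772005-34772063 on the plus strand, with its site from 65 to 47 bases before the start. That of Calr lies at chr8:84847055-84847113 on the minus strand, and its site has the letters in reverse orientation. The Hsp90b1 stretches lie at chr10:86705618-86705676 and chr10:86705513-86705571 on the minus strand, the second with its site reversed. Canx lies at chr11:50325780-50325838 on the minus strand and Pdia6 at chr12:17266471-17266529 on the plus strand. A match describes letters only, and binding was not measured in these libraries.

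Hspa5 was the most variable member in IPT and came after Ost4 in KHT, with coefficients of variation of 43.2% and 49.3%, against medians over the members of 14.3% and 14.7%. It was high in KHT 1, KHT 2 and IPT 1, at 575, 539.7 and 576 CPM, and at 340.4 or below in the other 5 KHT and IPT libraries. Calr had its lowest levels in those same 3 libraries, at 57.2, 50.2 and 47.4 CPM, and 89.9 or above in the other 5. Hsp90b1 and Canx were also lowest in these 3, at 51.7 to 57.8 and 76.7 to 81.4 CPM. Of the 5 members with the letters, Hspa5 was thus high and Calr, Hsp90b1 and Canx were low in these libraries. Pdia6 overlapped, with 8.93, 12.3 and 10.1 CPM in KHT 1, KHT 2 and IPT 1 and 11.8 to 18.0 in the others. As the RNA is that of whole cultures, more RNA per cell and more cells with that RNA cannot be told apart.

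Members without the letters were low in the same libraries too. The 3 libraries were singled out after the Hspa5 values were seen, so the following counts are a description with no test. In all, 13 members lay wholly lower in KHT 1, KHT 2 and IPT 1 than in the other 5 KHT and IPT libraries (41.9% of the members, beside a background of 13.9% of genes), and Hspa5 alone lay wholly higher (3.23%, beside 14.6%). Without the letters in their windows, or with no window, these were Sec61b, Tram1, Ssr1, Ssr3, Spcs3, Dad1, Rpn1, Pdia3, Pdia4 and P4hb. Ssr1, for example, ran from 46.9 to 61.4 CPM in the 3 libraries and from 86.8 to 102 in the others, and P4hb ran from 77.4 to 92.4 against 108 to 130.0. For Spcs3 and Pdia4 the gap was narrow, with upper values of 23.5 and 23.5 against lowest values of 23.7 and 23.8. Under scaling by total counts alone the numbers were 6 lower and 2 higher, beside 5.81% and 11.2% of genes. The 6 were Sec61b, Tram1, Ssr1, Calr, Pdia3 and Pdia6, and the 2 were Hspa5 and Spcs2. Hsp90b1, Canx, P4hb, Ssr3, Spcs3, Dad1, Rpn1 and Pdia4 were then no longer wholly lower, while Pdia6 overlapped under TMM scaling only.

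High levels of Hspa5 were found in 1 of the 4 IPT and 2 of the 4 KHT libraries, and its mean differed between the groups by less than the spread within them. The log2 fold change of KHT over IPT was 0.13 (SE 0.74, 95% interval -1.40 to 1.67). It was -0.11 without KHT 1, -0.06 without KHT 2 and -0.03 without IPT 3. For Calr it was -0.28 (SE 0.64, 95% interval -1.61 to 1.06).

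The other pathway lists differed among the same libraries in both directions, beside the same backgrounds of 13.9% of genes lower and 14.6% higher. Of 14 stress sensors and factors, 9 lay wholly higher in KHT 1, KHT 2 and IPT 1 and 2 wholly lower (8 and 1 under scaling by total counts alone). Of 20 ER degradation genes 6 were higher and 2 lower (4 and 2 under that scaling), and of 25 other luminal folding genes 2 were higher and 8 lower (1 and 3). Of 23 COPII and COPI coat genes 1 was higher and 7 were lower (0 and 2). Glycan assembly and trimming had 4 of 27 higher and 2 lower (5 and 1), and SRP and ER insertion had 2 of 25 higher and 2 lower (1 and 0). The genes described next were chosen after their values were seen. Ddit3 (CHOP, a factor of prolonged ER stress) stood at 58.2, 54.3, 9.37 and 13.2 CPM in KHT and 64.0, 8.17, 10.3 and 10.6 in IPT. Trib3, a target of ATF4 and CHOP, stood at 86.5, 72.4, 5.99 and 5.22 in KHT and 77.3, 1.55, 5.66 and 2.09 in IPT. Both were high in KHT 1, KHT 2 and IPT 1 and low in the other 5.

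Herpud1, a part of the ER degradation machinery, gave 27.8, 27.4, 9.83 and 13.9 CPM in KHT and 28.1, 6.06, 9.68 and 7.74 in IPT. The ERSE-II letters were in windows of 3 of 110 genes of the 6 other lists, Herpud1, Krtcap2 and Dnajb11. Krtcap2 lay wholly higher in KHT 1, KHT 2 and IPT 1 (24.7 to 25.3 CPM against 5.31 to 14.7). Dnajb11 lay wholly lower there (14.4 to 20.6 against 25.6 to 27.1), though not under scaling by total counts alone. The Herpud1 stretch lies at chr8:94386357-94386407 on the plus strand, with its site in capitals.
Herpud1: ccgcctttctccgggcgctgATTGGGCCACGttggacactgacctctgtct

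Ero1l, the oxidase that recharges disulfide isomerases, gave 46.2, 47.9, 9.71 and 7.70 CPM in KHT and 46.2, 11.7, 11.6 and 9.51 in IPT. Other genes known as targets of the ER stress response ran the other way. Dnajc3, a lumenal partner of Hspa5, gave 12.5, 6.62, 20.8 and 23.1 CPM in KHT and 10.3, 19.3, 17.3 and 19.3 in IPT. Creld2, an ER-resident stress protein, gave 5.64, 5.48, 10.7 and 9.19 in KHT and 5.22, 8.60, 7.89 and 9.51 in IPT, and its promoter window, like that of Dnajc3, holds the ERSE letters. Manf, a secreted ER stress protein, gave 11.4, 14.2, 16.2 and 19.9 in KHT and 10.0, 17.2, 19.2 and 18.9 in IPT. All 3 were lowest in KHT 1, KHT 2 and IPT 1.

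Vcp, the ATPase that extracts proteins from the ER for degradation, was also low there, at 83.4, 71.9, 157 and 139 in KHT and 75.5, 147, 164 and 169 in IPT. Xbp1, the factor made active by IRE1, was low throughout, at 2.23, 2.51, 3.50 and 4.97 in KHT and 3.20, 4.23, 2.98 and 5.23 in IPT. The labels give all 4 IPT libraries the same treatment field, untreated, and what set IPT 1 apart from IPT 2, 3 and 4 was not tested.

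**Figure D4:**
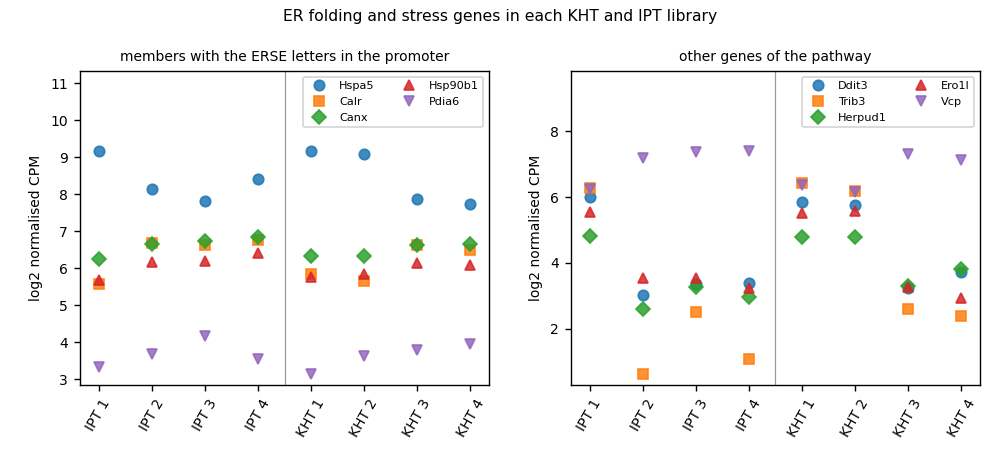
Log2 normalised CPM in each IPT and KHT library for the 5 members with ERSE letters (left) and 5 other genes of the pathway chosen after their values were seen (right). Hspa5, Ddit3, Trib3, Herpud1 and Ero1l are high in IPT 1, KHT 1 and KHT 2, where Calr, Canx, Hsp90b1 and Vcp are low (under scaling by total counts alone, Canx and Hsp90b1 are not wholly lower there).

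The disulfide isomerases form and reshuffle disulfide bonds, and none of the 4 was called in any comparison. Pdia3, the isomerase that works with calnexin and calreticulin, stood at 24.7, 29.9, 40.9 and 43.0 CPM in KHT, 28.4, 39.6, 42.0 and 44.1 in IPT and 12.7, 48.2, 33.5 and 49.0 in NEG, with a log2 fold change of -0.04 over NEG (SE 0.47, edgeR adjusted p = 0.954). The groups overlapped throughout. P4hb, the founding isomerase of the family, stood at 92.4, 83.3, 130.0 and 119 in KHT and 0, 0, 26.8 and 110.3 in NEG, where NEG 5 held 27 of 31 counts. Its log2 fold change of 1.57 (SE 0.83) did not pass (adjusted p = 0.133). Pdia4 and Pdia6 had 7 and 6 counts in NEG, and their log2 fold changes over NEG of 1.41 and 0.75 did not pass either (adjusted p = 0.0795 and 0.303).

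Summed by role, the groups kept similar shares in KHT and IPT. Outside the dominant features the translocon summed to 697 ± 47.1 CPM for KHT, 728 ± 65.9 for IPT and 352 ± 92.1 for NEG (SD over 4 libraries). Chaperones summed to 2645 ± 660 in KHT, 2654 ± 444 in IPT and 964 ± 685 in NEG. Signal peptidase ran opposite, at 311 ± 19.8 in KHT, 279.8 ± 14.8 in IPT and 628 ± 273 in NEG, and so did the mean of oligosaccharyltransferase, at 915 ± 47.2, 877 ± 47.8 and 1253 ± 380. That direction was carried by Ost4: the other 6 oligosaccharyltransferase members summed to 192, 280, 433 and 856 in NEG 1, 3, 4 and 5, against 749 to 850 in KHT and 762 to 852 in IPT. Without Sec11a and Sec11c, signal peptidase summed to 210 ± 13.1 in KHT, 195 ± 9.91 in IPT and 229 ± 59.3 in NEG. As shares of all counts, every role group was lower in NEG than in KHT and IPT.

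**Figure D5:**
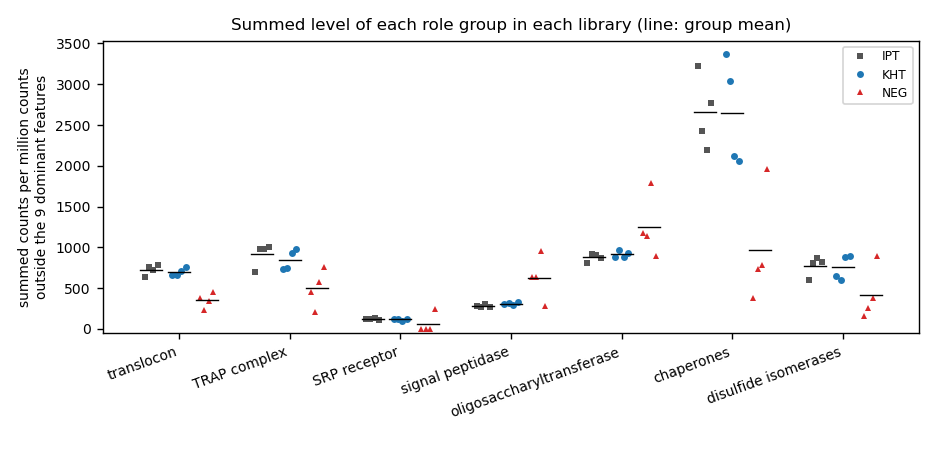
Summed CPM, counted outside the 9 dominant features for each role group in each library, with the group mean as a line. KHT and IPT lie together in each role group, and NEG lies lower for translocon and chaperones and higher for signal peptidase in 3 of 4 libraries. As shares of all counts, NEG is lower in every role group, signal peptidase included.

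Ratios of 2 partner genes within a library do not depend on how libraries are scaled, and 6 such pairs were compared between KHT and IPT by a two-sided exact permutation test. None passed, with p from 0.2 to 0.914 (adjusted 0.857 to 0.914), where the smallest p this design allows is 0.0286. Adjusted over the 6 pairs that becomes 0.171 for a single pair, so no pair could have passed by itself, and the result says nothing on whether a pair differs. The log2 ratio of Stt3a to Stt3b was 0.12 ± 0.19 over the KHT libraries and 0.14 ± 0.12 over those of IPT (SD, n = 4), the smallest difference of the 6. That of Hspa5 to Hsp90b1 was 2.50 ± 0.93 in KHT and 2.27 ± 0.82 in IPT. Ost4 to Stt3a spread widely in KHT, at -1.06 ± 0.99, against -1.55 ± 0.29 in IPT.

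The rest of the pathway was read from 6 further lists, and none of their genes was called between KHT and IPT. Between KHT and NEG, SRP and ER insertion genes had 8 of 25 higher and 1 lower, and glycan assembly and trimming had 5 of 27 higher and 0 lower. Other luminal folding genes had 7 of 25 higher, ER degradation 6 of 20, stress sensors and factors 5 of 14 and COPII and COPI coats 8 of 23, with 0 lower in each. These shares run from 18.5% to 35.7% beside the background of 31%. Under scaling by total counts alone the background itself was 97.3%.

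Within these lists the genes with the smallest p show the same limit of NEG depth. Emc1, of the complex that inserts membrane proteins, had 699 counts in KHT and none in NEG, at least 7.45-fold higher by the floor of 3 counts (edgeR adjusted p = 0.00236). Faf2, which recruits Vcp to the ER, had 613 and none, at least 6.53-fold higher (adjusted p = 0.00187). Sel1l, of the ER ubiquitin ligase complex, had 740 and 1, a ratio of 23.7 with an exact counting interval of 4.23 to 936. Ganab, the catalytic subunit of glucosidase II, had a mean of 67.0 ± 7.61 CPM over the KHT libraries and 9.96 ± 8.87 over those of NEG (SD, n = 4), a log2 fold change of 2.74 (SE 0.66, adjusted p = 0.00689).

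Srp9, a small subunit of SRP, was the gene of these lists called lower in KHT. It gave 9.71, 13.2, 14.2 and 15.6 CPM across KHT and 34.0, 103, 60.2 and 0 in NEG, with a log2 fold change of -1.78 (SE 0.54, edgeR adjusted p = 0.0193) and of 2.32 under scaling by total counts alone. The lower call was lost in limma voom (adjusted p = 0.621) and without NEG 1, 3 or 4 in turn (from 0.0526 to 0.178, with a log2 fold change of -1.07 without NEG 3). Like Ost4 and Sec11a, it was high in NEG 1, 3 and 4 and low in NEG 5. Because lengths of the transcripts were not used here, levels were not compared between genes.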

How the data were processed

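RNA sequencing libraries of 4 KHT pull-downs, 5 NEG pull-downs and 4 IPT inputs were used, grouped by title. The values are the authors' estimated counts for each gene, whole numbers with no scaling. The submitters' processing notes name kallisto, DESeq2, GRCm38 and mm10; versions, roles and the step from transcripts to genes are not given in the sources used here. Per the labels' protocols, the library kit was stranded, for total RNA, with ribosomal RNA depleted, while the molecule field names polyA RNA, and the description of KHT samples speaks of negative controls while their title and treatment name KHT. NEG 2 was 0 throughout, so 12 libraries were fitted where 13 had been deposited. If values count both mates of a pair, counting intervals and floors are too narrow, and they cover counting error only.

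All genes were fitted in 1 model of 3 groups (edgeR 4.0.16, R 4.3.3, glmQLFit robust, TMM, filterByExpr, 10714 genes), two-sided, with Benjamini-Hochberg adjustment over all of them and a threshold of 0.05. Standard errors are the log2 fold change over the root of its F statistic. The 9 dominant features each held at least 0.5% of pooled NEG counts. The fit was also run on simulated counts, drawn with the same spread setting for all genes and libraries. The spread within NEG was uneven, so that run does not show how the test behaves with NEG. DESeq2 1.42.0, limma voom (limma 3.58.1), other scalings, filters and sample sets were alternatives. Partner ratios added 0.5 to each count and used scipy 1.17.1. Symbols, promoters and the pseudogene type came from RefSeq tables of GRCm38.p6 and a gene name table, which gave 27004 of 27071 symbols. Named genes are all 31 members and, of each of the 6 other lists, up to 3 per direction with the smallest p among those called; others are said to have been chosen after their values were seen. Members, lists and tests were chosen with earlier results of these data known.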

Additional observations from a re-analysis of the deposited data

Results flagged for a closer look

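Dixon's test at its 95% critical value was run on 90 sets of 4 libraries (31 members in 3 groups, without the NEG sets of Sec61b, Sec61g and Ssr4, which are 0 throughout). In 7 sets 1 library lay far from the other 3, where chance flags about 1 in 20, or 4.5. The test flags by construction the 3 sets with counts in 1 library alone. In NEG, 3 members had counts in NEG 5 alone: Srpr at 49.0 CPM, Dad1 at 28.6 and Rpn1 at 24.5, each against 0 in NEG 1, 3 and 4. In KHT 2, Ost4 stood at 53.7 CPM, against 12.6 to 19.4 in the other KHT libraries, and Ssr2 stood at 21.7, against 26.6 to 27.6. In IPT 1, Calr stood at 47.4 CPM, against 99.9 to 108 in the other IPT libraries. In IPT 3, Ssr4 stood at 11.8 CPM, against 7.42 to 7.78.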

How the results depend on the processing

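Scaling by total counts alone changed the comparisons with NEG. KHT over NEG had 31 members higher and 0 lower (median 5.15), beside 97.3% and 0.131% of genes. NEG over IPT had 0 higher and 30 lower (median -5.36), beside 0.467% and 97.3%. This scaling reversed Sec11a (2.78), Sec11c (1.57) and Ost4 (1.50) for KHT with NEG and the same genes for NEG with IPT (-2.84, -1.24 and -1.04). It also reversed Hspa5 for KHT with IPT (-0.0755) and moved the members' median for KHT with IPT to -0.24. As shares of all counts the members summed to 3610 CPM in KHT, 126 in NEG and 4288 in IPT. Members higher in KHT than in NEG numbered 4 with library sizes outside the dominant features, beside a background of 21.9%, and 15 in DESeq2, beside 37.2%. They numbered 1 in a test against a 2-fold change, beside 16.2%, and 2 with the groups fitted alone, beside 24.8%. In limma voom 1 was lower, beside 2.36%. Members lower in NEG than in IPT numbered 16 in DESeq2, 2 against a 2-fold change and 3 with the groups fitted alone. The backgrounds were 39.6%, 16.5% and 21.9% in that order. Apart from scaling and filter, which act by construction, the cause was not tested.

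Replicate numbers did not pair the libraries: deviations of same-numbered libraries correlated at -0.09, -0.55, 0.13 and 0.00 for KHT and IPT. With the replicate number as a block, which fits NEG 5 by itself, KHT over NEG had 14 members higher, beside a background of 47.1%. NEG over IPT had 14 lower (median -1.80), beside 46.9%.

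Leaving out 1 library at a time, KHT over NEG gave 4 to 18 members higher and 2 to 3 lower (median 0.83 to 1.70). The backgrounds were 15.0% to 47.2% of genes higher and 1.52% to 3.95% lower. NEG over IPT gave 2 to 3 higher and 5 to 19 lower (median -1.85 to -0.81). There the backgrounds were 2.71% to 4.46% higher and 15.6% to 47.4% lower. For KHT over IPT no member was called in any of these fits, with medians from -0.06 to 0.03. Hspa5 ran from -0.11 to 0.47, including -0.06 without KHT 2 and -0.03 without IPT 3. The difference in partner ratio ran from -0.0780 to 0.0693 for Stt3a to Stt3b and from -0.0625 to 0.636 for Hspa5 to Hsp90b1. NEG depth, with 100 to 269 member counts a library, limits every comparison with NEG.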
